A study of Rattus norvegicus with 30 samples.

Results

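Antioxidant enzymes were measured in whole hearts of 30 untreated rats of the inbred strain F344 at 8 weeks (young), 21 weeks (adult) and 78 weeks (old). Each of the 6 groups held 5 rats of 1 sex and 1 age, none carried an engineered allele or received an agent, and each heart went on 1 one-color Agilent array labeled with Cy3. The 10 enzymes were chosen by gene symbol: Sod1, Sod2, Sod3, Cat, Gpx1, Gpx3, Gpx4, Prdx3, Prdx5 and Txnrd2. They held 14 rows in the authors' table of each age, of 27408 rows at 8 weeks, 27383 at 21 weeks and 26553 at 78 weeks, because Sod2 had 4 rows and Gpx4 had 2. Behind these rows were 17 of the 41012 probes of the array. The sexes were compared within each age from the tables. The ages were compared from the scanner signals, since each table was normalized by itself.

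Superoxide dismutases turn superoxide, a by-product of respiration, into hydrogen peroxide, which catalase, the glutathione peroxidases and the peroxiredoxins then remove. Cells keep separate forms in separate places. Sod1, Gpx1 and Gpx4 work mostly in the cytosol, Sod2, Prdx3 and Txnrd2 in the mitochondrial matrix, catalase in peroxisomes, Prdx5 in several of these, and Sod3 and Gpx3 outside the cell. The heart depends on the mitochondrial forms because its muscle is packed with mitochondria.

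The array named 12 of the 17 probes after the enzyme. The probes below are those of Gpx3, whose values did not overlap between the sexes in adult hearts, of Gpx4 and Cat, which the age comparisons turn on, and of the second Gpx4 row. They are 60 bases long and are printed 5′ to 3′ as on the array, with the positions its design gives in the rn3 build of the rat genome.
Gpx3 (A_44_P500949), chr10:40329751-40331218, plus strand: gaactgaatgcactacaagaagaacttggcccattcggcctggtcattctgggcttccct
Gpx4 row 1 (A_44_P508341), chr7:11163821-11163880, minus strand: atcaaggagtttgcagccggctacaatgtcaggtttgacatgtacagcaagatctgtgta
Gpx4 row 2 (A_44_P950367), chr7:11164091-11164144, plus strand: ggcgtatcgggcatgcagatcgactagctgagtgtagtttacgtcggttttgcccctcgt
Cat (A_44_P362954), chr3:88579491-88581435, plus strand: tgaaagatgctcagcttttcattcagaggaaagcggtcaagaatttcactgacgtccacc
The positions of the Gpx3 and Cat probes span more bases than the probes hold, so each probe joins stretches that lie apart in the genome. No exon annotation of this build was used here. The second Gpx4 row lay on the strand opposite to the probe that carries the enzyme's name.

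The 4 Sod2 rows came from different sites. The probe named after Sod2 (row 3) was placed on the minus strand at chr1:41865917-41865950. Row 1, at chr1:41867312-41867371, and both probes of row 2, at chr1:41866223-41866281 and chr1:41866153-41866212, lay on the plus strand. Of 1593 transcripts with several probes, 1590 had all of them on 1 strand, so these rows were read apart from row 3. Row 4 was placed on another chromosome, at chr5:68934691-68934750. Its probe and the reverse complement of the row 1 probe shared 52 of 57 overlapping bases (91.2%). Both are shown with the differing bases in capitals. As they stand on the array the probes are nearly complementary there, so they do not measure the same strand.
Sod2 row 1 (A_44_P143749), reverse complement: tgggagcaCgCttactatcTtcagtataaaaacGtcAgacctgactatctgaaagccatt
Sod2 row 4 (A_44_P944540): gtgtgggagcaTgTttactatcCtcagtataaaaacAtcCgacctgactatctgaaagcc
Counted from 1 at the 5′ end of the row 4 probe, the differences from row 1 to row 4 were C12T, C14T, T23C, G37A and A40C.

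The arrays had 17182 to 24290 spots well above background, and the 75th percentile of their signal ranged from 39.9 to 171. The weakest array was male replicate 2 at 21 weeks. At 78 weeks the array labeled female replicate 2 had Ddx3y and Eif2s3y, which lie on the Y chromosome, at the level of males, and the array labeled male replicate 3 had them at the level of females. All labels were kept, and results at 78 weeks are also given without these 2 arrays. Females were at array positions 2 and 4 and males at positions 1 and 3 of every slide, so position and sex cannot be told apart. All 8 cardiomyocyte markers examined were measured well above background in every group. The enzyme probes other than the pair of Sod2 row 2, 15 of 17, were well above background on all 30 arrays, and that pair on 29 and 28.

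No enzyme row differed between the sexes after adjustment over the whole table at any age (limma, Benjamini-Hochberg). The count was 0 of 14 rows at each age, where 0.102, 0.0511 and 0.0% of all rows passed at 8, 21 and 78 weeks. The lowest adjusted p among the rows was 0.879 at 8 weeks, 0.258 at 21 weeks and 0.856 at 78 weeks. At an unadjusted p under 0.05 the count was 0 of 14 at 8 weeks, 4 at 21 weeks and 1 at 78 weeks, against 5.74, 15.9 and 5.65% of all rows. The methods' t-test (their analysis of variance, which for a pair of groups is the same test) gave 1, 3 and 1 rows at that threshold and 0 after adjustment. All rows that passed unadjusted, by either test, were higher in males, a direction and threshold that 3.52, 9.67 and 3.68% of all rows met by limma at the successive ages.

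The side of the differences changed with age. Females were higher in 9 of 14 rows at 8 weeks, 2 at 21 weeks and 10 at 78 weeks. The median female minus male difference of the 14 rows was 0.03, -0.25 and 0.05 on the log2 scale. The median of all rows was -0.004, -0.135 and -0.004, so at 21 weeks the table's median also lay toward the males. In the scanner signals at 21 weeks it was -0.12 over all matched rows. Over the 17090 rows well above background on 5 or more arrays it was -0.05. The side of the enzyme differences turned at 21 and 78 weeks with normexp background correction (offset 50), and the cause was not tested. With normexp the main row of each of the 10 enzymes was higher in females at 21 weeks (0.073 to 0.72) and lower in females at 78 weeks (-0.77 to -0.12), where the median of all rows was -0.25 and 0.087. Female minus male differences below are log2 differences of the authors' values with the standard error (SE) from limma.

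**Figure D1:**
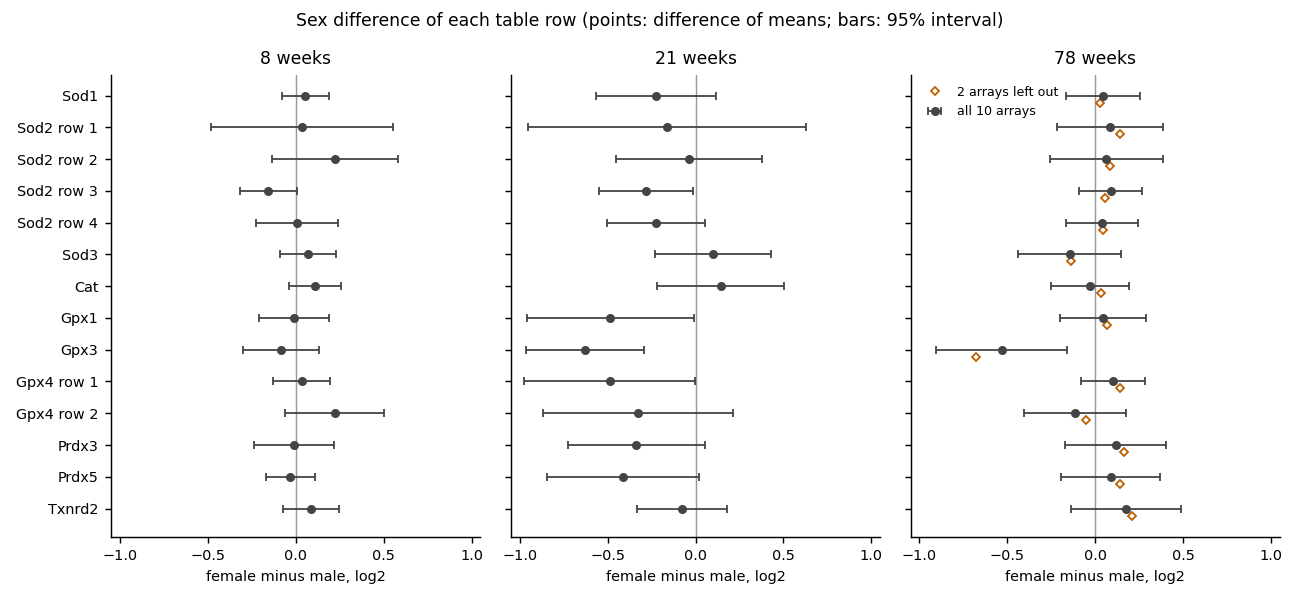
Female minus male difference of each enzyme row (log2 of the authors' values, x axis) at 8, 21 and 78 weeks, with 5 rats per sex; points are differences of means, bars their 95% intervals from limma, and open diamonds the 78-week differences without the 2 arrays whose Y-linked genes went against the label. The Gpx3 row lay at -0.63 at 21 weeks and -0.53 at 78 weeks, and its interval left out 0 at both ages.

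Gpx3, the glutathione peroxidase of plasma and extracellular fluid, was the enzyme with the lowest unadjusted p at 21 and 78 weeks. The 5 adult females had log2 values of 2.04, 2.42, 2.15, 2.19 and 1.97, and the 5 adult males 2.49, 3.05, 2.88, 2.56 and 2.92. Every male was above every female. The sexes had no overlap, in either direction, in 4.05% of all rows at that age. Means were 2.15 ± 0.17 in females and 2.78 ± 0.24 in males (SD, n = 5), a difference of -0.63 ± 0.15 (SE) or 1.54-fold. The exact permutation test gave p = 0.00794, the smallest that 5 against 5 rats allow, and the limma adjusted p was 0.258. The difference was present on each of the 3 slides that held adult hearts, at -0.53, -0.52 and -0.97 in the scanner signals. With normexp background correction in place of the scanner's own it was 0.076.

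In old hearts the females had Gpx3 values of 2.05, 2.15, 1.93, 1.75 and 2.01 and the males 2.54, 2.22, 2.11, 2.74 and 2.94. The lowest male value, 2.11, was from the array labeled male replicate 3, and the highest female value, 2.15, from the array labeled female replicate 2, which are the arrays with Y-linked genes of the other sex. The difference over all 10 arrays was -0.53 ± 0.17 (SE; exact permutation p = 0.0159, limma adjusted p = 0.856), with overlapping groups. Without these arrays it was -0.68 and the groups did not overlap, which held for 6.94% of all rows over the same 8 arrays. Its exact permutation p of 0.0286 is the lowest possible with 4 against 4 arrays (limma adjusted p = 0.382). It was -0.46 on slide 6, -0.11 on slide 7, which held both of those arrays, and -0.95 on slide 8. By scan day it was -0.22 for the arrays scanned on the first day and -0.95 for those scanned on the second.

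Young hearts did not show this separation. Gpx3 was 2.15, 1.95, 2.01, 2.11 and 2.14 in females and 2.01, 2.14, 2.21, 2.44 and 1.98 in males. The difference was -0.08, with a 95% interval from -0.30 to 0.13 (exact permutation p = 0.429). Whether the Gpx3 sex difference itself differed between ages was tested with an interaction term on the scanner signals. It was -0.54 at 21 against 8 weeks (limma adjusted p = 0.276) and -0.44 at 78 against 8 weeks (limma adjusted p = 1.00), so neither passed over all probes. In whole hearts, fewer cells of a type and less RNA per cell cannot be told apart.

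Sod2, the manganese enzyme of the mitochondrial matrix, was lower in females in its named row at the 2 younger ages by the exact permutation test, and did not pass over the whole table. At 21 weeks the females had 1.26, 1.11, 1.03, 0.97 and 0.81 and the males 1.28, 1.39, 1.23, 1.29 and 1.40. Only 1 female, at 1.26, reached into the male range. The difference was -0.28 ± 0.12 (SE; exact permutation p = 0.0159, limma adjusted p = 0.302). Young hearts had a difference of -0.16 (exact permutation p = 0.0397, limma adjusted p = 0.879) and old hearts one of 0.09 (exact permutation p = 0.0873), or 0.05 without the 2 arrays. The chromosome 5 row differed by 0.01, -0.22 and 0.04 at the 3 ages, and rows 1 and 2, on the opposite strand, had intervals that included 0 at every age. With normexp the 21-week difference of the named row turned to 0.073.

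Sod1, the copper and zinc enzyme of the cytosol, differed by 0.05, -0.23 and 0.04 at the successive ages, and each 95% interval included 0. The secreted enzyme Sod3 differed by 0.07, 0.10 and -0.15, and without the 2 arrays the last value was -0.14. The 21-week value rested on female replicate 5, and without that rat it was -0.0040. Cat, the peroxisomal catalase, was 2.28, 2.21, 2.11, 2.08 and 2.20 in young females and 1.99, 2.00, 2.08, 2.17 and 2.09 in young males. The groups overlapped, and the difference was 0.11 (exact permutation p = 0.0476, limma adjusted p = 0.935). Catalase differed by 0.14 at 21 weeks and -0.03 at 78 weeks, and by 0.03 at 78 weeks without the 2 arrays.

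Gpx1, the abundant cytosolic glutathione peroxidase, and Gpx4, which reduces lipid peroxides in membranes, were among the 4 rows higher in adult males at the unadjusted threshold of limma. Gpx1 was 7.19, 7.40, 7.30, 7.22 and 7.55 in adult females and 7.32, 8.31, 7.53, 7.59 and 8.33 in adult males. Gpx4 row 1 was 5.35, 5.72, 5.38, 5.68 and 5.80 in adult females and 5.69, 6.50, 5.84, 5.69 and 6.64 in adult males. In both enzymes the same pair of males stood above all other hearts. A further male lay just above the highest female, at 7.59 against 7.55 for Gpx1 and 5.84 against 5.80 for Gpx4. The remaining males lay within the range of the females. The differences were -0.48 ± 0.21 (SE) for Gpx1 (exact permutation p = 0.0556, limma adjusted p = 0.311) and -0.49 ± 0.22 for Gpx4 (exact permutation p = 0.0635, limma adjusted p = 0.314). With normexp they turned to 0.098 and 0.18.

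The table columns of adult males do not name the rat, but the scanner files do. There Gpx1 was 8.21, 9.23, 8.39, 8.52 and 9.20 in male replicates 1 to 5 (log2 scanner signal divided by the 75th percentile of each array). Prdx5, a peroxiredoxin of mitochondria, peroxisomes and cytosol, was 6.53, 7.14, 6.57, 6.52 and 7.49 and Sod1 8.20, 8.80, 8.30, 8.38 and 8.93 on the same arrays. Replicates 2 and 5 were the highest in all 3. Without replicate 5 the female minus male difference in the scanner signals was -0.33 for Gpx1, -0.32 for Gpx4, -0.24 for Prdx5, -0.21 for Prdx3 and -0.11 for Sod1. Replicate 2 had the lowest 75th percentile of these arrays, 39.9, against 103, 105, 65.6 and 72.1 in replicates 1, 3, 4 and 5. The summed level of the cardiomyocyte markers also ranged up to 8037 in adult males against 4569 in adult females. The part of array strength and of cell content in these differences was not tested.

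At 78 weeks Gpx1 differed by 0.05 and Gpx4 row 1 by 0.10 between the sexes, and at 8 weeks by -0.01 and 0.03. Without the 2 arrays the 78-week Gpx4 difference was 0.14 and the groups did not overlap, which held for 6.94% of all rows over the same arrays. Its exact permutation p of 0.0286 is the lowest that the remaining arrays allow (limma adjusted p = 0.732). Prdx5 differed by -0.03 at 8 weeks, -0.41 at 21 weeks (exact permutation p = 0.0317, limma adjusted p = 0.324) and 0.09 at 78 weeks. Prdx3, the main peroxiredoxin of the mitochondrial matrix, differed by -0.01, -0.34 and 0.12. Txnrd2, the mitochondrial thioredoxin reductase that keeps thioredoxin able to recharge Prdx3, differed by 0.09, -0.08 and 0.17. For Prdx3 and Txnrd2 the 95% interval included 0 at each age. Female replicate 4 carried much of the last values, since without it the 78-week differences of Txnrd2, Prdx3 and Prdx5 were 0.042, 0.045 and 0.020. Without the 2 arrays the 78-week differences of Sod1, Gpx1, Prdx3, Prdx5 and Txnrd2 were 0.03, 0.07, 0.16, 0.14 and 0.21.

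The ages were compared over all 30 arrays with 1 probe per enzyme. Of the probes that the array names after the enzyme, it was the one well above background on the most arrays and then the brightest. Sod2 row 4 was brighter than row 3 (mean log2 signal 4.18 against 1.91) but did not carry the enzyme's name on the array, so row 3 was used. The authors processed the ages in separate batches. Adult hearts were on slides 1, 2 and 3, which held no other age, so for any comparison with 21 weeks batch and age cannot be told apart. Young and old hearts shared only slide 6. In this scaling the median of all probes, on the log2 scale, rose by 0.28 from 8 to 21 weeks and fell by 0.17 from 21 to 78 weeks. It was 0.13 higher at 78 than at 8 weeks. Among the 21761 probes well above background on 10 or more arrays these medians were 0.07, -0.05 and 0.004, so the shifts were smaller in brighter probes. After quantile normalization, which gives every array the same distribution, the medians of all probes were 0.05, -0.05 and 0.005.

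At 21 weeks 9 of the 10 enzymes were higher than at 8 weeks (limma adjusted p under 0.05), where 39.0% of all probes were higher. Of the 21761 brighter probes (well above background on 10 or more arrays, tested alone), 7180 were higher. Relative to the median of all probes 7 of the 10 enzymes lay above it. After quantile normalization 6 passed, Gpx3, Gpx4, Prdx3, Prdx5, Sod1 and Txnrd2, where 16.6% of all probes were higher. At 78 weeks 6 of the 10 were lower than at 21 weeks, Gpx1, Gpx4, Prdx3, Prdx5, Sod1 and Txnrd2. So were 16.7% of all probes and 6908 of the 21761 brighter ones. After quantile normalization 4 were lower, Gpx4, Prdx3, Prdx5 and Txnrd2 (17.4% of all probes), and 2 were higher, Cat and Sod2 (13.5%). Between 78 and 8 weeks 1 enzyme, Cat, passed, and it was higher. So were 4.79% of all probes and 2238 of the 21761 brighter ones. All these calls were lost with normexp background correction, where 0 of 10 enzymes passed at 21 against 8, 78 against 21 and 78 against 8 weeks, against 6.29, 2.66 and 1.72% of all probes in either direction (limma; 0, 2 and 0 at an unadjusted p under 0.05).

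**Figure D2:**
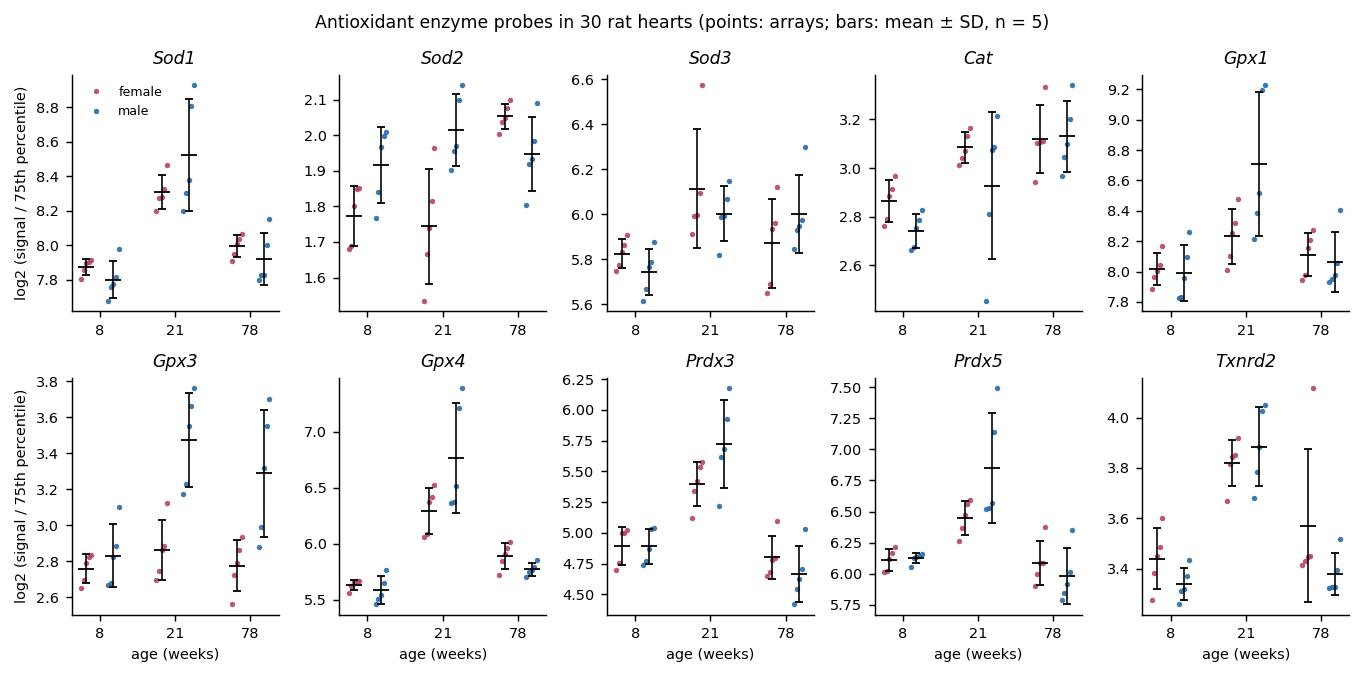
Level of 1 probe per enzyme on each of the 30 arrays (log2 scanner signal divided by the 75th percentile of each array, y axis) against age in weeks (x axis), females and males apart; points are arrays and bars the mean ± SD of 5. Gpx4, Prdx3, Prdx5, Sod1 and Txnrd2 were higher at 21 than at 8 weeks with no overlap of the arrays, and male spread at 21 weeks was wide for Gpx1, from 8.21 to 9.23.

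**Figure D3:**
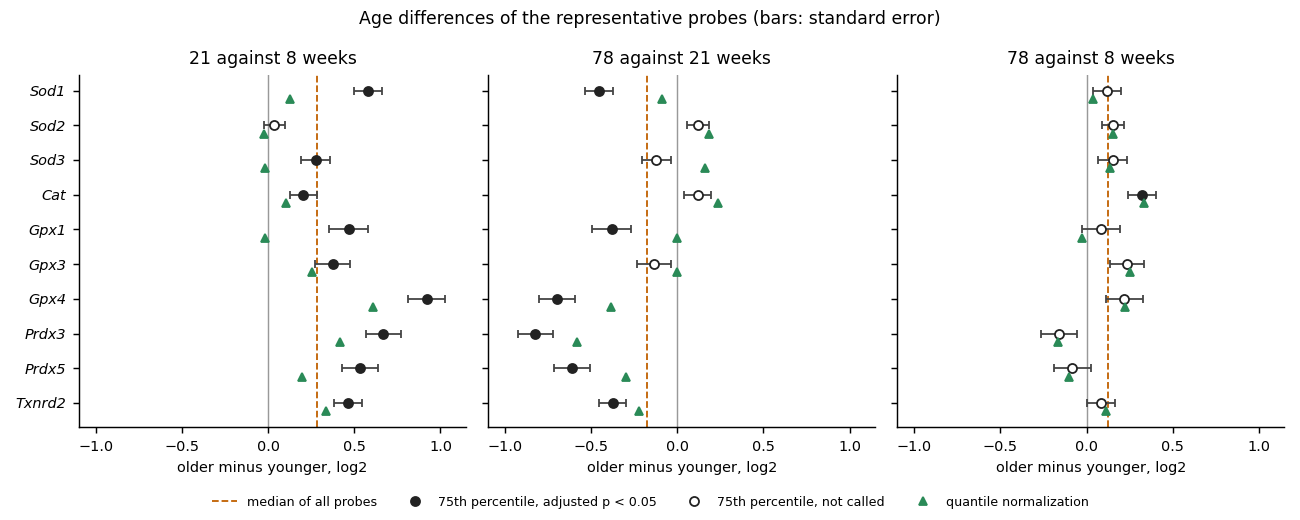
Older minus younger difference of the same 10 probes (log2, x axis) for the 3 pairs of ages; circles are 75th percentile scaling with bars for the standard error, filled where the limma adjusted p was under 0.05, triangles are quantile normalization, and the dashed line is the median of all probes. Gpx4 lay farthest to the right of that line at 21 against 8 weeks (0.92) and Prdx3 farthest to the left at 78 against 21 weeks (-0.83), while Cat alone was filled at 78 against 8 weeks (0.32).

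Among the cytosolic forms, Gpx4 had the largest difference of the 10 enzymes between 21 and 8 weeks. Its young females were 5.56, 5.67, 5.62, 5.66 and 5.65 and its young males 5.46, 5.50, 5.54, 5.65 and 5.77. Adult females were 6.06, 6.42, 6.09, 6.37 and 6.52 and adult males 6.37, 7.21, 6.52, 6.36 and 7.38. Every adult heart was above every young heart, as in Prdx3, Prdx5, Sod1 and Txnrd2, so 5 of 10 enzymes had no overlap where 6.59% of all probes had none. The difference was 0.92 ± 0.11 (SE, n = 10 per age; limma adjusted p = 2.9e-07), and 0.61 after quantile normalization. Old hearts were 6.01, 5.72, 5.91, 5.96 and 5.84 in females and 5.74, 5.79, 5.76, 5.85 and 5.70 in males. They lay below all adult hearts, as they did for Prdx3 and Sod1. These were 3 of 10 enzymes, against 3.62% of all probes with no overlap in either direction. The Gpx4 difference was -0.70 ± 0.11 (limma adjusted p = 1.1e-05). Old hearts were 0.22 above young ones, which passed only after quantile normalization (limma adjusted p = 0.0084, where 4.7% of all probes were higher) and over arrays of the same scan day (limma adjusted p = 0.029). Over those same-day arrays 6072 of 41012 probes were higher.

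Sod1 rose between 8 and 21 weeks with the same separation of arrays. Its young hearts ranged from 7.68 to 7.98, its adult hearts from 8.20 to 8.93 and its old hearts from 7.80 to 8.15. The difference at 21 against 8 weeks was 0.58 ± 0.08 (SE; limma adjusted p = 4.1e-06) and at 78 against 21 weeks -0.46 (limma adjusted p = 6.8e-05). Quantile normalization left 0.13 and -0.09, and the second of these did not pass. The other Sod1 probe gave 0.59 and -0.48, and the 2 probes stayed 0.49 ± 0.04 (SD, 30 arrays) apart. Gpx1 differed by 0.47 and -0.38, but by -0.02 and -0.004 after quantile normalization, so its direction at 21 against 8 weeks turned with the scaling.

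Among the mitochondrial forms, Prdx3 and Txnrd2 moved and Sod2 did not pass. Prdx3 was 5.00, 4.70, 4.75, 5.02 and 5.00 in young females and 4.74, 4.77, 5.04, 5.03 and 4.87 in young males. It was 5.34, 5.54, 5.12, 5.57 and 5.42 in adult females and 5.68, 5.92, 5.62, 5.22 and 6.17 in adult males. Adult and young hearts did not overlap, with a difference of 0.67 ± 0.10 (SE; limma adjusted p = 1.4e-05). Old females were 4.78, 4.65, 4.79, 5.10 and 4.68 and old males 4.42, 4.62, 4.70, 5.04 and 4.54, all below the adults. Prdx3 fell by 0.83 ± 0.10 between 21 and 78 weeks (limma adjusted p = 6.4e-07), and it was the single enzyme that passed there when old hearts scanned on the day of the adult hearts were used alone (-0.72, limma adjusted p = 0.040). In that fit 760 of 41012 probes were lower.

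Txnrd2 was 0.46 ± 0.08 (SE) higher at 21 than at 8 weeks and fell by 0.38 from 21 to 78 weeks, with limma adjusted p of 6.2e-05 and 0.00054. Prdx5, found in several compartments, was 0.53 ± 0.10 higher and then fell by 0.61 (limma adjusted p = 0.00026 and 4.8e-05). Sod2 was 1.77 ± 0.08 in young females, 1.74 ± 0.16 in adult females and 2.05 ± 0.04 in old females (SD, n = 5), and 1.92 ± 0.11, 2.01 ± 0.10 and 1.95 ± 0.10 in males. Its differences were 0.03 at 21 against 8 weeks and 0.12 at 78 against 21 weeks (limma adjusted p = 0.65 and 0.15). Sod2 was thus the 1 enzyme of 10 not called at 21 weeks, and relative to the median of all probes it was at -0.25. The median of probes well above background on 10 or more arrays was 0.07 at 21 against 8 weeks, near the Sod2 difference of 0.03.

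Catalase was the 1 enzyme called between 78 and 8 weeks. Its young hearts were 2.97, 2.92, 2.79, 2.76 and 2.89 in females and 2.67, 2.68, 2.75, 2.83 and 2.79 in males. Old hearts were 3.11, 2.94, 3.10, 3.33 and 3.11 in females and 3.10, 3.05, 3.20, 3.34 and 2.97 in males. The ages overlapped in the old female at 2.94 and the highest young hearts. The difference was 0.32 ± 0.08 (SE; limma adjusted p = 0.0087), 0.20 above the median of all probes, 0.34 after quantile normalization and 0.34 without the 2 arrays (limma adjusted p = 0.014). On slide 6, which held 1 rat of each sex and age, it was 0.22 in the females and 0.31 in the males. With slide as a fixed block it was 0.27 and did not pass (limma adjusted p = 0.63), and with the scanner's median signal it was 0.25 (limma adjusted p = 0.081). With normexp it was 0.0061. At 21 against 8 weeks catalase lay below the median of all probes. It lay above the median of probes well above background on 10 or more arrays (0.07). Catalase was 0.20 higher at 21 weeks (limma adjusted p = 0.033). That call was lost after quantile normalization (0.10), with the median signal (0.072) and in 8 of 30 fits without 1 array (limma adjusted p up to 0.068), and normexp turned it to -0.15.

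The secreted forms were higher at 21 than at 8 weeks in the main scaling, Sod3 by 0.27 (limma adjusted p = 0.0078) and Gpx3 by 0.37 (limma adjusted p = 0.0041). For Sod3 the direction turned to -0.02 after quantile normalization, and for Gpx3 0.25 was left. With normexp they were -0.18 and -0.010. Gpx3 differed by 0.64 in males and 0.10 in females in this comparison. Between 78 and 21 weeks the secreted forms differed by -0.12 and -0.14 and did not pass.

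Taken for each sex from the same fit, 4 enzymes passed in females and 7 in males at 21 against 8 weeks, 2 and 6 at 78 against 21 weeks, and 0 and 1 at 78 against 8 weeks. More of all 41012 probes passed in males too. At 21 against 8 weeks 1107 were higher and 1728 lower in females, and 15805 and 5584 in males. At 78 against 21 weeks these were 1997 and 1546 in females, and 5115 and 7522 in males. At 78 against 8 weeks they were 505 and 433, and 776 and 741. The test of the difference between the sexes called 0 of 10 enzymes in each comparison, with a lowest adjusted p of 0.276 at 21 against 8 weeks and 0.251 at 78 against 21 weeks (limma; 0.00244% of all probes passed in each, and 0.0% at 78 against 8 weeks). Unadjusted, 3 of 10 passed at 21 against 8 weeks, 5 at 78 against 21 weeks and 1 at 78 against 8 weeks, where 17.3, 13.5 and 2.52% of all probes did. The largest of these was Gpx4 at 78 against 21 weeks, which fell by 1.00 in males and by 0.40 in females.

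Rows of 1 name did not move alike. The second Gpx4 row, on the opposite strand, was 1.04 higher at 21 than at 8 weeks (limma adjusted p = 1.2e-06), as the named row was. It was also 0.72 ± 0.13 (SE) higher at 78 than at 8 weeks (limma adjusted p = 0.00053), where the named row did not pass. Its young hearts ran from -1.94 to -1.19 and its old hearts from -0.99 to -0.35, with no overlap, which held for 1.96% of all probes. With this row, 2 of the 17 probes were called between 78 and 8 weeks. None of the 5 Sod2 probes passed in any of the 3 age comparisons in the main scaling. Their differences at 21 against 8 weeks were 0.25 for row 1, 0.25 and 0.15 for the 2 probes of row 2, 0.03 for row 3 and 0.11 for row 4.

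**Figure D4:**
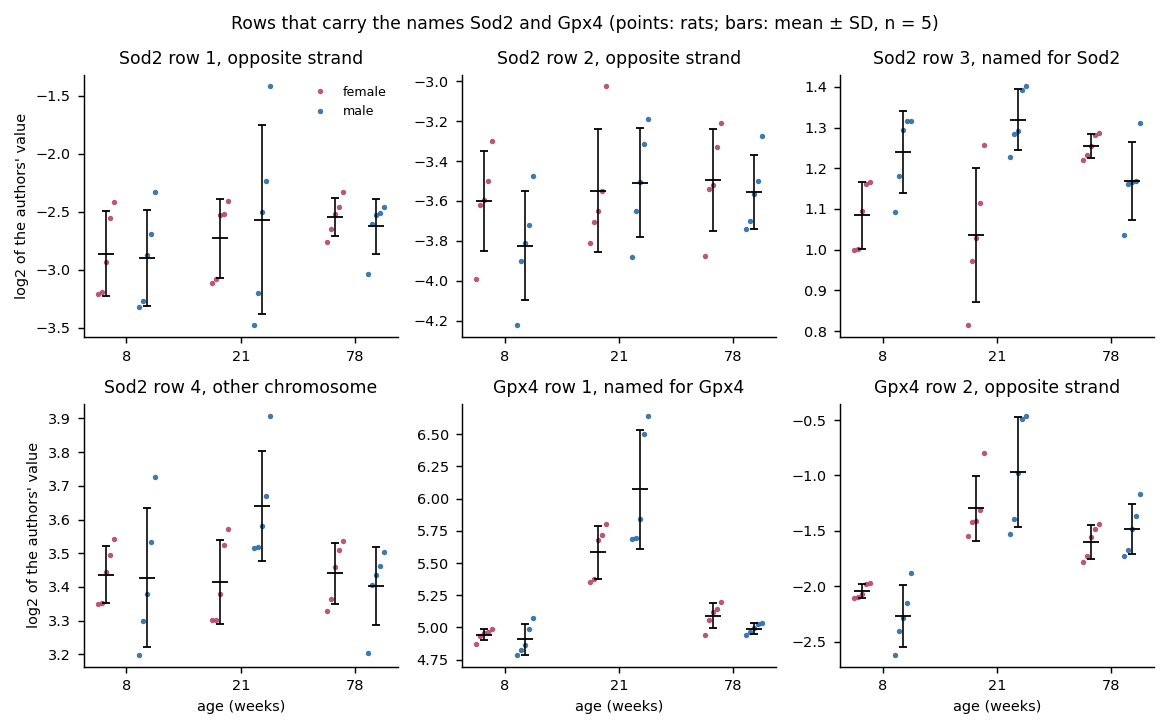
All rows that carry the names Sod2 and Gpx4 (log2 of the authors' values, y axis) in females and males by age in weeks (x axis); points are rats and bars the mean ± SD of 5, and the 3 ages come from tables normalized separately. Row 1 of Sod2 spread widely within groups, from -3.48 to -1.42 in adult males, and row 1 of Gpx4 from 5.69 to 6.64 in the same hearts.

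The forms of an enzyme were also compared within each array, where a constant scaling factor of the array cancels. A distortion that differs between bright and dim probes does not cancel, and mean log2 signals were 8.07 for Sod1 and 1.91 for Sod2. Quantile normalization also left smaller Sod1 changes, as given above. Comparisons with 21 weeks still rest on slides that held no other age. The log2 signal of 1 probe was subtracted from that of another, and only changes of this difference between groups were read, since probes differ in brightness. Over 18 exact permutation tests for 3 pairs of forms, 6 had an adjusted p under 0.05 (Benjamini-Hochberg over the 18). The mitochondrial Sod2 minus the cytosolic Sod1 fell by 0.54 from 8 to 21 weeks and was 0.58 higher at 78 than at 21 weeks, with an exact permutation p of 3.15e-05 for each, the smallest that permuting ages within sex allows (adjusted p = 0.000283). Both directions held in each sex, at -0.46 in females and -0.62 in males for the first and 0.62 and 0.53 for the second. Old and adult hearts did not overlap. Between 78 and 8 weeks the change was 0.03.

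The secreted Sod3 minus Sod1 changed by -0.30 from 8 to 21 weeks (exact permutation p = 0.00198, adjusted p = 0.0119) and by 0.33 from 21 to 78 weeks (exact permutation p = 0.0155, adjusted p = 0.0476). Both changes were larger in males. The first was -0.15 in females and -0.46 in males, and the second 0.07 in females and 0.60 in males. The second lost its call without the 2 arrays of 78 weeks, where it was 0.25. The secreted Gpx3 minus the cytosolic Gpx1 was lower in old females than in old males by the difference -0.56 (exact permutation p = 0.0159, adjusted p = 0.0476), and without those arrays the difference was -0.74 (adjusted p = 0.103, exact). At 8 and 21 weeks it was -0.09 and -0.14. Sod2 minus Sod1 was lower in young females than in young males, at -0.22 (exact permutation p = 0.0159, adjusted p = 0.0476), which was -0.05 with the chromosome 5 row of Sod2 in place of the named row.

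**Figure D5:**
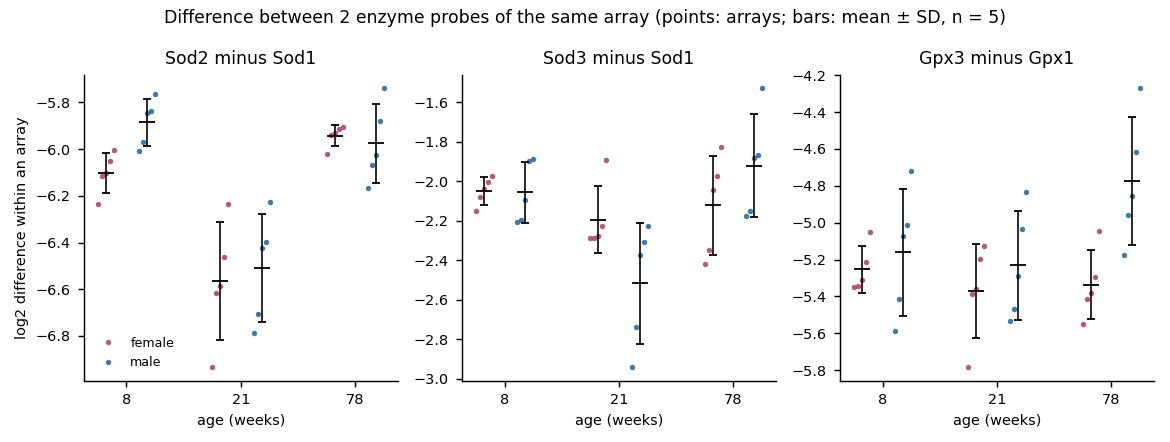
Within-array difference of 2 enzyme probes (log2, y axis) for Sod2 minus Sod1, Sod3 minus Sod1 and Gpx3 minus Gpx1, by age in weeks (x axis) and sex; points are arrays and bars the mean ± SD of 5. Sod2 minus Sod1 was 0.54 lower at 21 than at 8 weeks and 0.58 higher at 78 than at 21 weeks, and the position on the y axis itself carries no meaning because probes differ in brightness.

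Genes that serve the same enzymes were examined as 8 lists of 118 genes measured by the array. They covered thioredoxin and peroxiredoxin, glutathione, the Nrf2 pathway, metals, selenoproteins, mitochondrial NADPH, sources of reactive oxygen and regulators. At 78 against 8 weeks 24 genes were higher and 8 lower, with a median difference of 0.08 against 0.13 for all probes, of which 4.79% were higher and 4.08% lower. At 21 against 8 weeks 66 were higher and 10 lower (median 0.35 against 0.28; 39.0 and 14.6% of all probes). At 78 against 21 weeks 11 were higher and 48 lower (median -0.25 against -0.17; 13.2 and 16.7%). After quantile normalization the counts were 28 and 12 (4.7 and 6.13% of all probes), 50 and 10 (16.6 and 14.6%), and 13 and 38 (13.5 and 17.4%). None of 159, 158 and 156 rows of these genes passed between the sexes at 8, 21 and 78 weeks.

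Of these genes, the largest difference between 78 and 8 weeks was in Maoa, a mitochondrial monoamine oxidase that makes hydrogen peroxide, at 2.54 ± 0.12 (SE; limma adjusted p = 1.1e-14). It was 1.37 ± 0.17 in young, 2.66 ± 0.50 in adult and 3.91 ± 0.39 in old hearts (SD, n = 10). The glutathione transferases Gsta2, Gsta3 and Gsta1, which join glutathione to reactive compounds, were 2.50, 1.91 and 1.85 higher, and the metal-binding metallothioneins Mt2A and Mt3 1.73 and 1.07 higher. Tfrc, the transferrin receptor that takes up iron, fell by 1.85. Aldh1l2, a mitochondrial enzyme that makes NADPH, was well above background on all 10 young arrays and on 0 old ones, which makes it at least 3.27-fold lower.

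Mt2A, Mt1, Maoa, Gsta2, Gsta3 and Sqstm1, an autophagy receptor that frees Nrf2 from its inhibitor, were 1.96, 1.26, 1.29, 1.26, 1.18 and 1.11 higher at 21 than at 8 weeks. Tfrc fell by 1.14 there, and Aldh1l2 was at least 2.97-fold lower, on 0 adult arrays. Between 21 and 78 weeks Txn2, the mitochondrial thioredoxin that Txnrd2 reduces, fell by 0.77 ± 0.12 (SE; limma adjusted p = 1.4e-05). Maoa, Gsta2, Cp, Aox1, Txnip and Gsta1 were 1.26, 1.25, 1.07, 0.94, 0.82 and 0.74 higher. Txnip binds and inhibits thioredoxin, Cp is the copper carrier ceruloplasmin (well above background on 7 of 10 adult arrays), and Aox1 is an oxidase that forms reactive oxygen. Duox1, another such oxidase, also passed, but it was well above background on only 2 old and 3 adult arrays, so no size is given.

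Cell type markers moved with age beside the enzymes, and their part in these results was not tested. Summed over its 8 genes, the cardiomyocyte level (linear signal over the 75th percentile) was 2383 to 3654 on young male arrays, 3673 to 8037 on adult male arrays and 3024 to 4122 on old male arrays, and 7 of 8 genes were higher at 21 than at 8 weeks but 0 after quantile normalization. The fibroblast level of 6 genes was 461 to 577 on young arrays and 231 to 393 on adult and old arrays. The erythroid level of 7 genes, whose cells are rich in catalase, Prdx2 and Gpx1, was 198 to 315 on young, 241 to 728 on adult and 221 to 316 on old arrays. The macrophage and leukocyte level of 7 genes was 84.4 to 98.2 on young, 125 to 223 on adult and 88.2 to 137 on old male arrays, with medians of 92.9, 120 and 88.6 in females, and adult and young arrays did not overlap in either sex. The endothelial level of 6 genes was 151 to 176 on young, 86.1 to 128 on adult and 137 to 169 on old male arrays, and 5 of 6 genes were lower at 21 than at 8 weeks in both scalings. The adipocyte level of 6 genes, with Lep on no array, had group medians of 56.4 and 58.5 in young females and males and 91.5 and 100.2 in old ones. No row of any marker list passed between the sexes at any age.

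Promoters of 9 of the 10 enzymes were matched by symbol in RefSeq (GRCr8), from 250 bases before to 50 after the gene's start. They were searched on both strands for TGACNNNGC, the core of the antioxidant response element. It was found in 2 of the 9, Sod2 as TGACCCTGC and Prdx5 as TGACTCTGC, both on the minus strand relative to the gene. Of all 33469 promoters, 12.1% held it. A match is a description of the letters only.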

How the data were processed

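Members and gene lists were chosen with earlier results of these data known. Per the labels and methods, RNA of each heart was labeled with Cy3, hybridized to an Agilent rat array of 45018 spots and read with Agilent Feature Extraction, whose processed signal intensity is background-subtracted. The deposited tables hold, for each age, signal values that the authors divided by the 75th percentile of each array after removing genes that were not expressed. Of their rows, 98.0, 98.0 and 97.9% were matched to the scanner intensities within 0.002 log2 (8, 21 and 78 weeks). Fits that need the rat used scanner values at 21 weeks, where the table's male columns give no replicate. The deposited flag for spots well above background (other values, 0 or 1) was used as given.

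Here the log2 of the table values was tested between sexes within each age over all rows, and log2 of the processed signal minus the 75th percentile of non-control spots between ages over all 41012 probes, with limma 3.58.1 in R 4.3.3 (two-sided, Benjamini-Hochberg). Exact permutation tests used SciPy 1.17.1. The table and scanner scales differ by an offset of 0.66 to 0.82 log2, so table levels were not set across ages. All rows of each member symbol were named. Among the probes that the array names after the enzyme, the probe for ages was the one well above background on the most arrays, ties going to the brighter one. Of the related genes at most 8 per comparison with an adjusted p under 0.05 were named, those with the largest difference. p-values measure the spread between rats. Scripts were tested on simulated data. At 78 weeks rats of the same number deviated together (correlations of 0.20 to 0.34 between females and males), so a fit with the replicate number as a block was run. Other alternatives were the median signal, normexp background (offset 50), quantile normalization, filters on dim probes, slide and scan day, single sexes and single arrays left out. Precision is limited by 5 rats per group.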

Additional observations from a re-analysis of the deposited data

Results flagged for a closer look

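In 4 of 84 groups of 5 rats, 1 array lay far from the other 4 by Dixon's test at the 95% level, which chance alone gives in about 1 of 20 groups. All values are log2 of the authors' values. Txnrd2 was 3.30 in old female replicate 4, where the nearest female was at 2.67. Sod3 was 5.85 in adult female replicate 5, where the nearest was 5.39. Sod3 was also 5.53 on the array labeled male replicate 3 at 78 weeks, one of the arrays whose Y-linked genes went against the label, where the nearest male was 5.17. Sod2 row 1, on the opposite strand, was -3.03 in old male replicate 2, where the nearest was -2.60.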

How the results depend on the processing

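No enzyme row passed between the sexes under any of the alternatives run, also with the replicate number as a block (0 of 14 rows at each age). The replicate block left the age counts at 9, 6 and 1 of 10 enzymes (21 against 8, 78 against 21 and 78 against 8 weeks). Same-numbered rats correlated at -0.25 to 0.15 at 8 weeks and -0.16 to 0.53 at 21 weeks, so the numbers were not taken as pairs at those ages, although same-numbered females and males shared a slide and at 21 weeks replicates 1, 2 and 5 correlated best with their own number. With normexp background the age counts were 0, 0 and 0. In females alone they were 4, 2 and 0, beside the counts of all probes in females given above. Between 78 and 8 weeks the count was 0 with the median signal and with slide as a fixed block. Of all 41012 probes, 1908 were higher and 1346 lower with the first, and 99 and 98 with the second. The count was 2 after quantile normalization (Cat and Gpx4), where 1928 probes were higher and 2512 lower. With the filter on dim probes it was also 2 (Cat and Sod2), where 2238 of 21761 probes were higher and 2253 lower. Over arrays of 1 scan day it was 3, where 6072 of 41012 probes were higher and 3257 lower. Between 78 and 21 weeks 1 enzyme passed over arrays of 1 scan day, where 1319 probes were higher and 760 lower. Leaving out single arrays gave 8 to 9, 6 and 1. Catalase lost its call at 21 against 8 weeks in 8 of 30 such fits (limma adjusted p up to 0.068). Of the 18 tests of forms, 3 in place of 6 passed with the median signal, without the 2 arrays of 78 weeks and with the chromosome 5 row of Sod2 (added after seeing the data), and 2 with normexp.

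Single values that turned were mostly with normexp. For females minus males at 21 weeks they became 0.073 for Sod2, 0.098 for Gpx1, 0.076 for Gpx3 and 0.18 for Gpx4. At 78 against 8 weeks they became -0.071 for Sod2, -0.084 for Gpx3 and -0.12 for Gpx4. At 21 against 8 weeks they became -0.18 for Sod3, -0.15 for Cat and -0.010 for Gpx3, and after quantile normalization -0.022 for Sod3 and -0.022 for Gpx1. The cause was not tested.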
